A study of Nothobranchius furzeri with 25 samples.

Results

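The comparison described here sets the brains of 5 turquoise killifish males (Nothobranchius furzeri) aged 5 weeks, taken whole, against those of 5 males aged 27 weeks, later minus earlier, across all genes. The 10 libraries were taken by their age labels from a series of 25, which holds 5 males at each of 5 ages. All animals belonged to MZM-04/10, a strain derived from the wild. No treatment is given for any of them. The study's methods state that the fish were fasted before death and that the hour of killing, in the morning, did not vary. Each library came from 1 brain, and the labels call the 5 libraries of an age biological replicates. The titles of JM96 at 5 weeks and JM69 at 27 weeks carry the mark w0w1, whose meaning is not given in the sources used here. Of the 18228 transcript contigs in the count table, 16484 passed a filter on low counts and were tested, and 1905 of these could be given a name. A whole brain mixes neurons, glia, vessels and blood, so a level is an average over all of them.

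The turquoise killifish lives in seasonal pools and is one of the shortest-lived vertebrates kept in the laboratory. It reaches sexual maturity within weeks and grows on through adult life. Fish brains, unlike those of mammals, keep many zones of dividing progenitor cells in the adult, which add neurons to most regions. The younger age therefore stands at the start of adult life, while the brain is still growing, and the older age late in it.

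The libraries held between 16501691 and 22557320 counts, and levels are given as counts per 1000000 counts of the library after TMM scaling (CPM), as mean ± SD with n = 5 per age. Reads were not tagged by molecule, so duplicates from PCR count as reads, and low values carry the most counting error. In multidimensional scaling of the 10 libraries, dimension 1 held 75.59% of the variation and placed every 5-week brain below every 27-week brain. Spearman's correlation between libraries, computed across genes, was 0.981 to 0.991 among the 5-week brains, 0.977 to 0.990 among the 27-week brains and 0.950 to 0.978 between ages. The brains of an age did not lie together on dimension 1. At 27 weeks JM52 lay farthest from the young brains and JM72 nearest, and at 5 weeks JM100 lay farthest from the older brains and JM97 nearest. The same brains stood out gene by gene, since among the 5870 genes called between the ages JM52 had the 27-week value farthest from the young level in 44.7% and JM72 the nearest in 38.9%. At 5 weeks JM100 had the farthest value in 44.0% of them and JM97 the nearest in 39.5%.

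**Figure D1:**
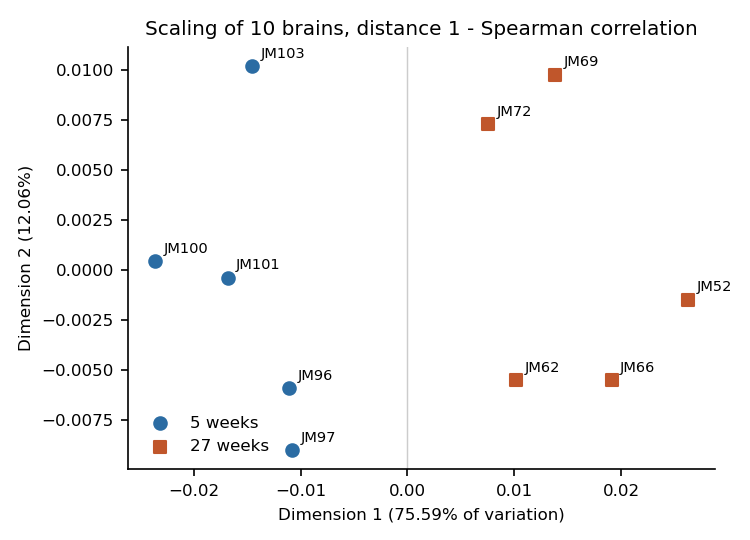
Multidimensional scaling of the 10 brains on a distance of 1 minus the rank correlation, with dimension 1 (75.59% of the variation) on the x axis and dimension 2 (12.06%) on the y axis, 1 point per brain. Circles are 5-week and squares 27-week brains, and the ages fall on opposite sides of 0 on dimension 1.

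Many genes differed between 5 and 27 weeks, and the large changes were mostly falls. With edgeR's quasi-likelihood test and a Benjamini-Hochberg adjusted p under 0.05, 2787 genes were higher at 27 weeks (16.9% of those tested) and 3083 were lower (18.7%), together 35.6%. The order of these 2 counts turned under upper-quartile scaling (2964 higher and 2855 lower), which moved the median of all genes from 0.02 to 0.04 on the log2 scale. In 1713 genes (10.4%) every 27-week brain lay above every 5-week brain, and in 1986 (12.0%) every one lay below. The median change of the called genes was small, at a log2 fold change of 0.48 for the higher and -0.50 for the lower ones, against 0.02 over all tested genes. Genes that differed at least 2-fold numbered 316 higher (1.92%) and 492 lower (2.98%), and at least 4-fold 25 higher (0.152%) and 148 lower (0.898%). Of these 148, 68 had a mean of 1 to 10 CPM and 75 a mean of 10 to 100 CPM at the higher age. Only 3 of them were under 1 CPM at both ages. Among the 1905 named genes 297 (15.6%) were higher and 334 (17.5%) lower, close to the shares over all genes.

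**Figure D2:**
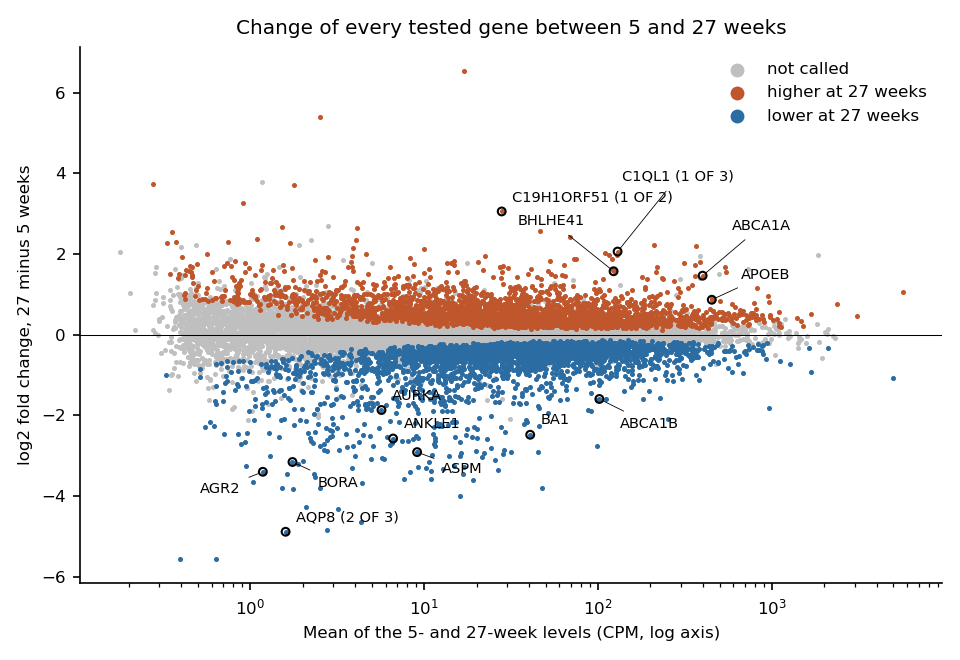
Every tested gene by its level (mean of the CPM at both ages, log axis) and its log2 fold change (27 minus 5 weeks), 1 point per gene, coloured by its call at an adjusted p under 0.05 in edgeR. The 25 genes called at least 4-fold higher are outnumbered by the 148 called at least 4-fold lower, which lie mostly between 1 and 100 CPM, and open circles mark genes named in the text.

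Markers of other tissues were followed in the same libraries, and none of those tested was at 0 in any of the 10. The 10 genes of the brain list summed to 5433 to 5983 CPM at 5 weeks and 4912 to 5718 CPM at 27 weeks, led by ALDOCB, a brain aldolase (from 1991 ± 136 to 2186 ± 213 CPM, not called), and ATP1A3B, a neuronal sodium pump (from 1812 ± 138 to 1451 ± 192 CPM, adjusted p = 0.018). The call of ATP1A3B ended without 5 weeks JM103 and without 27 weeks JM52 or JM66 (adjusted p up to 0.063). Of the 10 genes 2 were lower, ATP1A3B and BCAN, and 2 were higher, ASPA (from 26.3 to 46.7 CPM, adjusted p = 0.0016) and ATCAYA (from 151 to 184 CPM, adjusted p = 0.033). At 20.0% each way the list was near all genes, of which 18.7% were lower and 16.9% higher. The call of ATCAYA ended in 7 of 19 alternative fits, those without 5 weeks JM100, JM101 or JM96 or 27 weeks JM52, JM66 or JM72 and that without the 6 libraries of mark w0w1 (adjusted p up to 0.12). Skeletal muscle genes spread widely at 5 weeks: the 9 tested members summed to 110.4 to 586 CPM at 5 weeks and 101 to 174 CPM at 27 weeks, and the highest sum was that of 5 weeks JM96. ACTC1B, a muscle actin, had 106, 90.3, 148, 437 and 232 CPM in the 5-week brains (JM100, JM101, JM103, JM96 and JM97, the order used throughout) and 89.7, 78.3, 113, 92.0 and 99.9 CPM in the 27-week brains (JM52, JM62, JM66, JM69 and JM72). The ages overlapped, though JM103, JM96 and JM97 lay above every older brain. The call of ACTC1B (log2 fold change -1.10, adjusted p = 0.0070) ended without JM96, at a log2 fold change of -0.61 and an adjusted p of 0.054. It also ended without the 6 libraries of mark w0w1, at a log2 fold change of -0.60 and an adjusted p of 0.11. The other called muscle gene, APOBEC2 (2 OF 2), was higher (from 4.85 to 7.31 CPM, adjusted p = 0.029). Its call ended with the 10 libraries alone and without 5 weeks JM100 or JM101 or 27 weeks JM52, JM66 or JM72 (adjusted p up to 0.13). Of the muscle list 11.1% were lower and 11.1% higher, beside 18.7% and 16.9% of all genes. Liver genes, which include circulating proteins, summed to 2728 to 3934 CPM and 1937 to 4069 CPM, and 0 of 6 were called, beside 35.6% of all genes. Of 6 retina and lens genes, which summed to 24.8 to 31.9 CPM and 16.9 to 31.4 CPM, ARR3 (1 OF 2), the arrestin of cones, fell from 1.87 ± 0.554 to 0.590 ± 0.221 CPM, and BFSP1, a filament protein of the lens, rose from 2.00 ± 0.915 to 4.60 ± 2.78 CPM (adjusted p = 0.037). The call of BFSP1 ended with the 10 libraries alone and without 5 weeks JM100, JM101 or JM96 or 27 weeks JM66 or JM72 (adjusted p up to 0.13). Of the 6 retina and lens genes 1 was called lower and 1 higher (16.7% each way, beside 18.7% and 16.9% of all genes). Markers of the pineal (3.34 to 4.52 CPM and 2.33 to 4.20 CPM), of choroid plexus and meninges (94.5 to 119 CPM and 71.2 to 99.6 CPM) and of skin, bone and fin (10.4 to 20.6 CPM and 10.7 to 27.7 CPM) overlapped between the ages in their sums. Of the 2 markers of choroid plexus and meninges, ALDH1A2 was called lower, without overlap (adjusted p = 2.2e-04). This was 50.0% of that list, beside 18.7% of all genes. Of 5 skin, bone and fin genes AGR2 was called lower (20.0%), and of 3 pineal genes 0 were called. The part of these tissues in the other results was not tested.

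The clearest fall among the gene lists was that of cell division. A dividing cell builds a spindle, checks that each chromosome is attached, separates the copies and pinches apart, and the proteins for these steps are made mainly in cells that cycle. All 10 members of the list of mitotic spindle and cytokinesis genes were called lower at 27 weeks, against 18.7% of all tested genes, and in all 10 the ages did not overlap (12.0% of all genes). The median log2 fold change of the list was -1.42, beside 0.02 over all genes. The members of the list were chosen with earlier results of these data known, so the share called is not independent support. In whole brain a smaller number of dividing cells and less RNA per cell cannot be told apart.

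ASPM, which organises the poles of the spindle and is known from inherited small brain size in humans, had 27.0, 10.2, 12.6, 14.8 and 15.8 CPM in the 5-week brains and 0.513, 4.87, 1.4, 0.994 and 2.92 CPM at 27 weeks. JM100 held the highest young value, and at 27 weeks JM62 and JM72 kept more of it than the other three. The mean fell from 16.1 ± 6.49 to 2.14 ± 1.77 CPM (log2 fold change -2.91 ± 0.51 SE, adjusted p = 1.3e-04 in edgeR, n = 5 per age; SE, the standard error of the log2 fold change). BORA, which activates the kinase Aurora A at entry into mitosis, had 4.81, 2.83, 4.00, 2.18 and 1.94 CPM and then 0.154, 0.595, 0.162, 0.226 and 0.594 CPM. Every older brain was under 1 CPM, and the log2 fold change was -3.16 ± 0.42 SE (adjusted p = 4.9e-06).

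AURKA, Aurora A itself, had 13.6, 7.01, 10.6, 7.27 and 6.09 CPM at 5 weeks and 2.46, 2.33, 2.26, 1.72 and 3.43 CPM at 27 weeks. The young values spread more widely than the older ones, among which JM72 was highest (log2 fold change -1.87, adjusted p = 3.6e-06). AURKC, a further Aurora kinase, fell from 14.6 ± 5.13 to 4.77 ± 0.640 CPM, a 3.06-fold change with an adjusted p of 4.9e-07. The checkpoint genes, whose products hold division until every chromosome is attached, were BUB1B (from 20.7 ± 5.21 to 9.73 ± 1.01 CPM), BUB3 (from 38.4 ± 7.47 to 18.3 ± 1.27 CPM) and BUB1 (from 41.6 ± 6.18 to 30.3 ± 1.10 CPM). ANLN, which scaffolds the ring that pinches cells apart, fell from 22.3 ± 9.52 to 7.72 ± 3.40 CPM, with 12.5 CPM in JM62 and 4.74 CPM in JM69. BOD1, which helps chromosomes attach the right way round, changed less (log2 fold change -0.47, adjusted p = 0.0032), and ARHGAP11A, a GTPase-activating protein of dividing cells, fell from 10.6 ± 2.34 to 4.26 ± 0.697 CPM.

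Other genes stood among the 12 named genes of largest fall. C1ORF135, the gene of an Aurora A partner known in humans as AUNIP, fell from 2.55 ± 0.362 to 0.592 ± 0.250 CPM (log2 fold change -2.09). C1H15ORF23, known in humans as the spindle protein kinastrin, fell from 9.33 ± 2.91 to 2.80 ± 1.18 CPM. ARHGAP19 (2 OF 2), a GTPase-activating protein, fell from 2.17 ± 0.651 to 0.390 ± 0.271 CPM, and ANKLE1, a nuclease with ankyrin repeats, from 11.4 ± 2.76 to 1.90 ± 0.762 CPM (adjusted p = 2.7e-07). C13H6ORF108, a nucleotide hydrolase known in humans as DNPH1, fell from 13.7 ± 4.43 to 4.03 ± 1.21 CPM. A mark such as 2 OF 2 in a name stands for 1 of the copies of a gene. Reads that fit more than 1 copy may be missing from its count, which makes its level uncertain. How alike the copies are was not examined. The anaphase-promoting complex tags proteins for destruction at the end of mitosis but also works outside it. Of its 8 subunits 1 was called lower (12.5%, beside 18.7% of all genes). This was ANAPC2 (from 35.7 ± 4.38 to 20.9 ± 3.45 CPM, adjusted p = 0.0015), and the median log2 fold change of the 8 was 0.03.

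**Figure D3:**
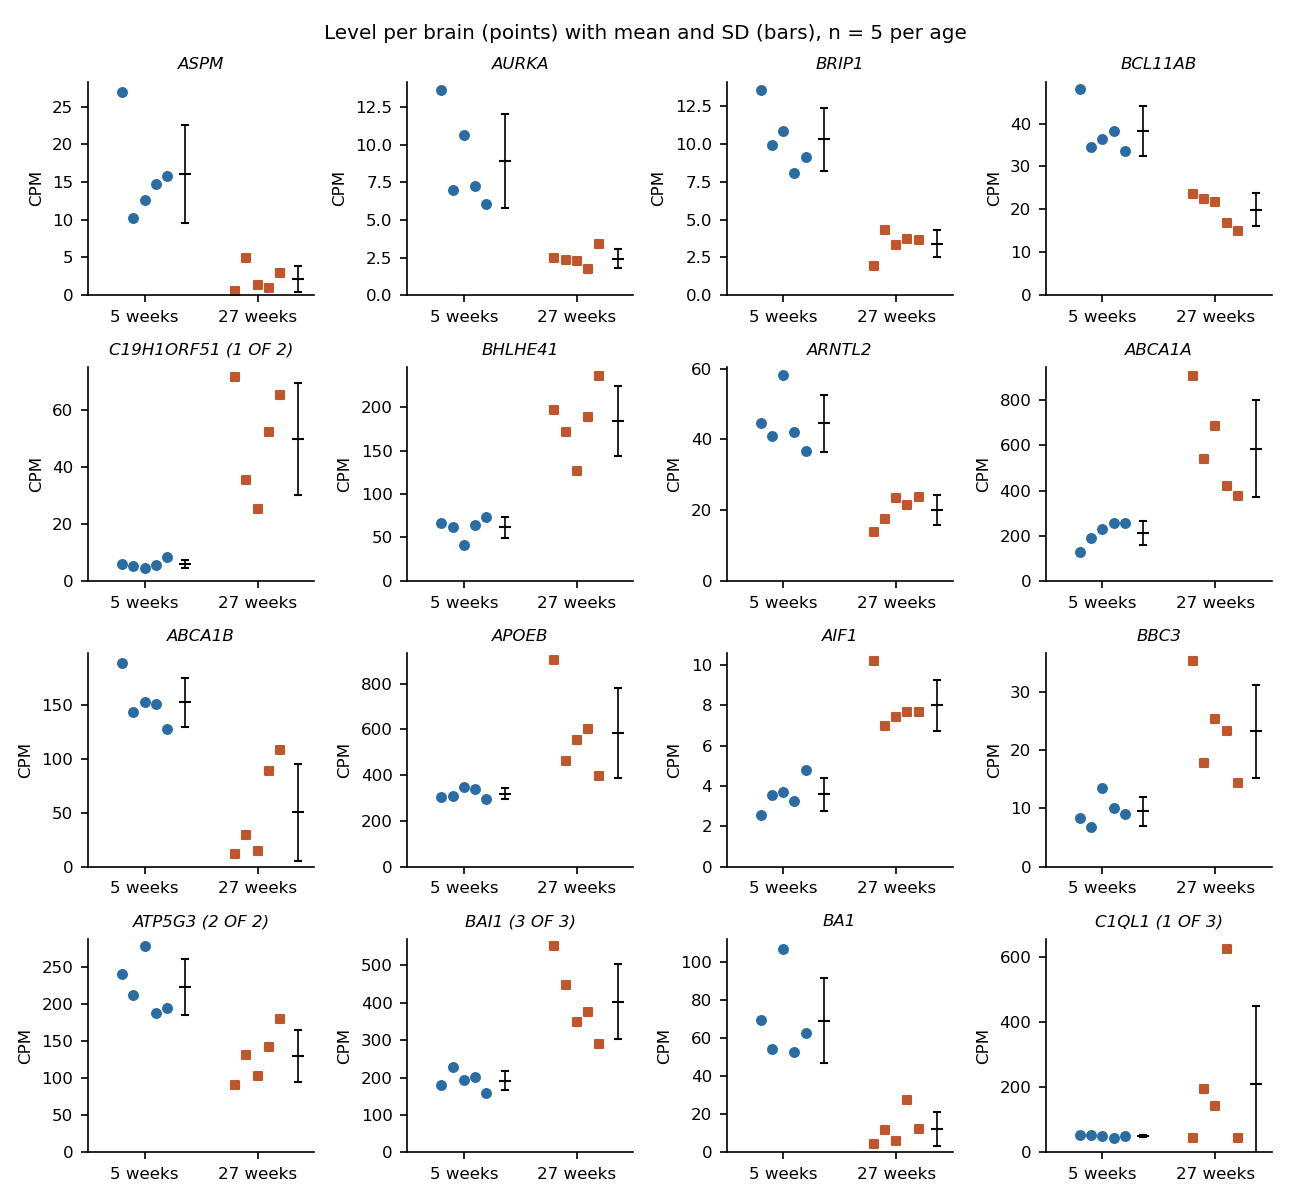
Level of 16 genes in each of the 10 brains (points, CPM on a linear axis from 0; circles 5 weeks, squares 27 weeks) with mean and SD (bars, n = 5 per age; the SD bar of C1QL1 (1 OF 3) is cut at 0). In 15 of the 16 panels the ages do not overlap, and in C1QL1 (1 OF 3) the mean at 27 weeks is raised most by 622 CPM in JM69.

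Genes that guard DNA during its copying also fell in part. Of 18 tested genes for DNA damage and repair, 6 were lower, 1 was higher and 11 were not called (33.3% lower against 18.7% of all genes), with a median log2 fold change of -0.13. BRIP1, a helicase that works with BRCA1 at stalled replication forks, had 13.6, 9.96, 10.9, 8.07 and 9.18 CPM at 5 weeks and 1.95, 4.33, 3.34, 3.75 and 3.65 CPM at 27 weeks, with JM52 lowest and no overlap (log2 fold change -1.60 ± 0.20 SE, adjusted p = 3.0e-06). ATAD5A, which unloads the replication clamp, fell from 33.6 ± 5.02 to 18.1 ± 1.84 CPM, BRCA1 from 6.86 ± 1.09 to 3.95 ± 0.594 CPM, its partner BARD1 from 3.86 ± 0.871 to 2.16 ± 0.618 CPM and BCCIP from 169 ± 10.8 to 129.8 ± 11.1 CPM. The kinases that signal DNA breaks and stalled forks, ATM and ATR, and the repair gene BRCA2 were not called. ATRIP, the partner of ATR, was the single gene that rose (from 42.6 ± 3.76 to 51.3 ± 6.26 CPM, adjusted p = 0.022), and its call ended without 5 weeks JM100 (adjusted p = 0.093) or 27 weeks JM52 (adjusted p = 0.086), with the 10 libraries alone (adjusted p = 0.058) and without the 6 libraries of mark w0w1 (adjusted p = 0.083).

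Chromatin regulators were lower more often than higher. They comprise remodelers that slide nucleosomes, readers of histone marks and parts of the complexes that write those marks. Of 51 tested, 16 were lower (31.4%) and 5 higher (9.80%), beside 18.7% and 16.9% of all genes, with a median log2 fold change of -0.10. In 16 of the 51 every older brain lay below every young one and in 1 above, beside 12.0% and 10.4% of all genes. ATRX, a remodeler at repeats and chromosome ends, had 687, 644, 519, 587 and 613 CPM at 5 weeks and 309, 433, 389, 330.1 and 401 CPM at 27 weeks (log2 fold change -0.71 ± 0.09 SE, adjusted p = 4.5e-06). The contigs named ATRX moved apart, since ATRX (2 OF 2) was among those called higher. BAZ1B, a partner of the remodeler ISWI, fell from 135 ± 19.4 to 75.0 ± 8.43 CPM, and ACTL6A, the BAF subunit of progenitor cells, from 78.9 ± 11 to 50.9 ± 7.92 CPM. ATAD2 and ATAD2B, which carry a bromodomain beside an ATPase, fell from 51 ± 9.04 to 26.4 ± 1.82 CPM and from 36.4 ± 7.64 to 12.8 ± 2.95 CPM. The 5 that rose had log2 fold changes of 0.19 to 0.34, the last that of BAP1, a deubiquitinase of histone H2A (from 44.7 ± 3.14 to 56.6 ± 4.32 CPM, adjusted p = 4.6e-04).

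Among factors that set neuronal fate every called gene was lower. Such factors push progenitors out of the cycle and into a neuronal type, or keep the identity of a type. Of 15 tested, 6 were lower (40.0%, beside 18.7% of all genes), 0 higher and 9 not called, with a median log2 fold change of -0.25. BCL11AB, a zinc-finger transcription factor of neurons, had 48.1, 34.6, 36.3, 38.4 and 33.5 CPM at 5 weeks and 23.6, 22.5, 21.7, 16.7 and 14.8 CPM at 27 weeks. JM100 was the highest young brain, and every older brain was below every young one (log2 fold change -0.94 ± 0.13 SE, adjusted p = 8.2e-06). BARHL2, a homeobox factor of the retina and forebrain, fell from 24.2 ± 3.89 to 15.6 ± 2.35 CPM. The calls of BCL11AA and BCL11B (2 OF 2) ended without the 6 libraries of mark w0w1 (adjusted p = 0.10 and 0.095). MEX3A, an RNA-binding protein, was looked up after its values were seen, through the zebrafish identifier that the study's methods give for it. That identifier stands at 2 contigs. The contig marked as best hit had 65.8, 50.2, 40.8, 59.6 and 56.3 CPM at 5 weeks and 15.0, 27.4, 16.2, 12.3 and 12.5 CPM at 27 weeks (log2 fold change -1.71 ± 0.25 SE, adjusted p = 1.5e-05), and the other contig went from 3.91 ± 0.320 to 2.93 ± 0.704 CPM and was not called (adjusted p = 0.12).

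Genes of the circadian clock were called in both directions. In the clock of vertebrates ARNTL proteins (BMAL), paired with CLOCK, switch on their own repressors, which return to block them, so that the levels rise and fall within a day. BHLHE40 and BHLHE41 (DEC1 and DEC2) and the protein that in humans is named CIART, from the gene C1orf51, belong to the repressors. Since all fish were killed at 1 hour of the day, the values are a single time point of that cycle. Of 4 repressor genes 3 were higher, and of 3 activator genes 2 were lower, beside 16.9% higher and 18.7% lower of all genes (median log2 fold changes 1.37 and -0.54). C19H1ORF51 (1 OF 2) had 6.02, 5.07, 4.51, 5.67 and 8.53 CPM at 5 weeks and 71.7, 35.3, 25.2, 52.1 and 65.1 CPM at 27 weeks. This was the named gene of largest rise, with every older brain at least 25.2 CPM and every young brain at most 8.53 CPM (log2 fold change 3.06 ± 0.50 SE, adjusted p = 6.8e-05). The related contig C1ORF51 (1 OF 2) went from 31.2 ± 2.28 to 34.1 ± 7.31 CPM and was not called (adjusted p = 0.78). Reads that fit both contigs may be missing from their counts.

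BHLHE41 had 66.9, 62.5, 41.9, 64.3 and 73.2 CPM at 5 weeks and 197, 171, 126, 188 and 236 CPM at 27 weeks. BHLHE40 had 137, 191, 195, 189.8 and 174 CPM and 507, 379, 397, 364 and 346 CPM. The log2 fold changes were 1.57 ± 0.28 SE for BHLHE41 (adjusted p = 1.5e-04) and 1.17 ± 0.20 SE for BHLHE40 (adjusted p = 1.1e-04), without overlap in either gene. Per length of transcript BHLHE40 was the more abundant at both ages, with a mean RPKM of 90.0 ± 12.5 at 5 and 198 ± 33.3 at 27 weeks, against 10.3 ± 2.06 at 5 and 29.8 ± 6.27 at 27 weeks for BHLHE41. ARNTL2 fell, from 44.5, 41.0, 58.2, 42.1 and 36.7 CPM at 5 weeks to 13.9, 17.4, 23.3, 21.6 and 23.7 CPM at 27 weeks (log2 fold change -1.15 ± 0.29 SE, adjusted p = 0.0033). ARNTL1A fell from 73.0 ± 11.3 to 50.3 ± 8.16 CPM (log2 fold change -0.54, adjusted p = 0.037), but its call ended without 5 weeks JM101, JM103 or JM96 and without 27 weeks JM52 or JM72, with an adjusted p of up to 0.10. ARNTL2 (2 OF 2) was at 5.36 ± 0.398 and 6.80 ± 3.48 CPM and was not called (adjusted p = 0.37).

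Lipid handling changed in both directions. Cells of the brain pass cholesterol and phospholipid to apolipoproteins through ABC transporters of the ABCA1 type, with APOE as the main acceptor made by glia. The 2 genes listed as ABCA1A and ABCA1B moved apart. ABCA1A had 128, 189, 231, 258 and 256 CPM at 5 weeks and 907, 540.4, 687, 420.3 and 377 CPM at 27 weeks (log2 fold change 1.46 ± 0.25 SE, adjusted p = 9.6e-05). ABCA1B had 189, 144, 153, 151 and 128 CPM at 5 weeks and 11.3, 29.4, 14.4, 89.0 and 109 CPM at 27 weeks (log2 fold change -1.59 ± 0.49 SE, adjusted p = 0.015). Neither overlapped between ages, but the older brains differed widely. JM52 was highest in ABCA1A and lowest in ABCA1B, while JM72 was lowest in ABCA1A and highest in ABCA1B. Of 6 efflux transporters tested, 2 were higher and 3 lower (33.3% and 50.0%, beside 16.9% and 18.7% of all genes). ABCG4A, a cholesterol exporter, rose from 146 ± 13.7 to 207 ± 41.3 CPM, ABCA7, a phospholipid transporter, fell from 30.5 ± 0.972 to 20.9 ± 4.51 CPM, and ABCA5 fell from 98.0 ± 3.44 to 86.0 ± 6.37 CPM, the last called in each setting but the one without the 6 libraries of mark w0w1 (adjusted p = 0.078).

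APOEB, an apolipoprotein E, had 303, 308, 349, 340.3 and 295 CPM at 5 weeks and 903, 461, 552, 601 and 396 CPM at 27 weeks. All older brains were above all young ones, with JM52 highest and JM72 lowest, the same order of these 2 brains as in ABCA1A (log2 fold change 0.87 ± 0.22 SE, adjusted p = 0.0042). APOC1L rose from 8.33 ± 3.44 to 18.5 ± 6.63 CPM (adjusted p = 0.0076, with overlap at 7.68 CPM in JM62), and APOF from 110.0 ± 5.12 to 143 ± 15.8 CPM (adjusted p = 0.012). The other 13 of 16 tested apolipoprotein genes were not called, so that 18.8% of the list were higher, near the 16.9% of all genes, and 0 lower. The summed level of the list overlapped between the ages, at 2027 to 2652 CPM and 1753 to 3012 CPM.

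Genes for building and activating fatty acids and sterols were lower in 7 of 15 (46.7%, against 18.7% of all genes) and higher in 2. ACSL6, which activates long-chain fatty acids in neurons, had 116, 106, 93.1, 95.5 and 95.1 CPM at 5 weeks and 42.2, 56.4, 49.0, 53.7 and 70.0 CPM at 27 weeks (log2 fold change -0.90 ± 0.13 SE, adjusted p = 1.1e-05). ACSL3A fell from 24.5 ± 2.20 to 13.2 ± 2.48 CPM, ACSBG2, a further acyl-CoA synthetase, from 132 ± 15.1 to 77.5 ± 9.60 CPM, ACLYA, which makes acetyl-CoA from citrate for lipid synthesis, from 153 ± 19.8 to 106 ± 10.9 CPM, and ACAT2 from 42.0 ± 6.32 to 27.7 ± 5.18 CPM. Not all synthetases went down, since ACSL5 was among the 12 named genes of largest rise (from 4.35 ± 1.75 to 11.6 ± 4.27 CPM, log2 fold change 1.41 ± 0.36 SE, adjusted p = 0.0035). In the breakdown of fatty acids, 4 of 12 genes were lower and 1 higher (33.3% and 8.33%, beside 18.7% and 16.9% of all genes, median log2 fold change -0.19). The first enzymes of mitochondrial oxidation ACADVL, for very long chains, and ACADS, for short chains, fell from 179 ± 9.27 to 133 ± 18.1 CPM and from 32.6 ± 4.39 to 21.2 ± 4.25 CPM, and ACAD9, which also assembles respiratory complex I, from 47.5 ± 5.06 to 36 ± 1.67 CPM. The rise of ACADSB (log2 fold change 0.19) was not called in 10 of 19 alternative fits, where its adjusted p reached 0.18, among them those without 5 weeks JM100, JM101, JM96 or JM97 and without 27 weeks JM52, JM69 or JM72.

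The mitochondrial ATP synthase, which turns the proton gradient of respiration into ATP, was lower in 9 of 17 tested subunits and assembly factors and higher in 0 (52.9% against 18.7% of all genes). The median log2 fold change was -0.33, and ATP5G3 (2 OF 2) had the largest change. ATP5G3 (2 OF 2), which encodes a subunit of the rotating ring, had 240.4, 211, 278, 187 and 194 CPM at 5 weeks and 90.5, 131, 103, 142 and 179.9 CPM at 27 weeks. Among the older brains JM72 came nearest to the young ones and JM52 lay farthest from them (log2 fold change -0.78 ± 0.16 SE, adjusted p = 7.6e-04). The catalytic subunits ATP5A1 and ATP5B fell from 793 ± 103 to 601 ± 73.5 CPM and from 1041 ± 177 to 744 ± 101 CPM, ATP5IB from 105 ± 10.5 to 71.9 ± 14.2 CPM, and the assembly factor ATPAF2 from 38.0 ± 3.52 to 24.1 ± 5.45 CPM. The summed level of the 17 was 2950 to 4152 CPM in the young and 2279 to 2987 CPM in the older brains, so that the ages overlapped in the sum. The vacuolar proton pump, a related machine that acidifies lysosomes and synaptic vesicles, had 3 of 18 subunits lower and 2 higher, at 16.7% and 11.1%, beside 18.7% and 16.9% of all genes. Of these 5 calls, those of ATP6V0B, ATP6V0CB and ATP6V0A1A ended without 27 weeks JM52 or JM66 or 5 weeks JM103. Some of them also ended without 5 weeks JM100 or JM101 or 27 weeks JM62 (adjusted p up to 0.12). All 3 also ended with the 10 libraries alone. Those of ATP6V0B and ATP6V0CB ended under upper-quartile scaling too, and that of ATP6V0A1A with library totals as the only scaling. One of the higher ones, ATP6V1C1A, had 164, 253, 237, 505 and 189 CPM at 27 weeks against 161, 162, 175, 149 and 158 CPM at 5 weeks, with JM69 far above the rest, and its call ended when the 6 libraries of mark w0w1, JM69 among them, were left out (adjusted p = 0.11).

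Purine and one-carbon metabolism supplies nucleotides and methyl groups, and 7 of its 21 tested genes were lower and 1 higher (33.3% and 4.76%, beside 18.7% and 16.9% of all genes). The median log2 fold change of the 21 was -0.013. AHCY, which clears the by-product of methylation reactions, had 140.4, 112, 136, 105 and 102 CPM at 5 weeks and 47.5, 60.8, 53.0, 64.1 and 72.0 CPM at 27 weeks. Its level was 2.00-fold lower with little spread among the older brains (log2 fold change -1.0 ± 0.12 SE, adjusted p = 1.8e-06). APRT, which salvages adenine, fell from 158 ± 16.2 to 80.0 ± 32.6 CPM, with 132 CPM in JM72 close to the lowest young value of 143 CPM. ADA, adenosine deaminase, fell from 6.50 ± 1.58 to 2.66 ± 1.45 CPM, and ADSSL, on the path to AMP, from 69.6 ± 7.61 to 48.4 ± 6.72 CPM. ADK, adenosine kinase, rose slightly (from 38.8 ± 1.62 to 47.0 ± 4.27 CPM, adjusted p = 0.010), whereas the contig named ADKA was among those called lower.

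Among genes of stress and cell death, the rises lay in a few members. ATF factors are leucine-zipper proteins that answer stress in the endoplasmic reticulum, lack of amino acids and other strain. Of 12 tested with their BATF relatives, 5 were higher (41.7%, against 16.9% of all genes) and 2 lower. ATF3 had 2.68, 3.77, 3.83, 5.15 and 3.00 CPM at 5 weeks and 12.6, 7.90, 5.77, 14.2 and 8.09 CPM at 27 weeks, with JM69 and JM52 highest and JM66 close to the highest young brain (log2 fold change 1.4 ± 0.28 SE, adjusted p = 4.4e-04). ATF4 (1 OF 2) and ATF5 (1 OF 2), which act in the response to misfolded proteins, went the other way (from 285 ± 24.0 to 231 ± 19 CPM and from 50.0 ± 5.24 to 34.1 ± 4.88 CPM). ATF3, with the co-chaperone BAG3 (from 25.2 ± 2.77 to 40.2 ± 5.23 CPM) and BTG1, is also 1 of 4 genes listed as responding to handling of the animal or tissue, of which 3 were higher (BTG1 with an adjusted p of 0.045, and not in 12 of 19 alternative fits, where it reached 0.12, nor in any fit without 1 library except that without 27 weeks JM72) and whose sum was 108 to 125 CPM at 5 and 126 to 181 CPM at 27 weeks, highest in JM52. The part of handling in these results was not tested. BATF rose from 6.19 ± 0.688 to 14.8 ± 2.16 CPM, and its call ended without 5 weeks JM100 or JM101 (adjusted p = 0.050 and 0.056). It also ended without the 6 libraries of mark w0w1 (adjusted p = 0.090).

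Of 11 tested genes that promote cell death, 5 were higher (45.5%) and 2 lower (18.2%), beside 16.9% and 18.7% of all genes. The median log2 fold change of the 11 was -0.10, beside 0.02 over all genes. BBC3, known as PUMA, which releases the brake on BAX and BAK, had 8.37, 6.84, 13.5, 10.0 and 8.99 CPM at 5 weeks and 35.3, 17.8, 25.4, 23.3 and 14.4 CPM at 27 weeks. JM52 was highest, and JM72 was only just above JM103, the highest young brain (log2 fold change 1.28 ± 0.24 SE, adjusted p = 2.6e-04). BNIP3 and its relative BNIP3L, which sit on the mitochondrial surface and also tag mitochondria for removal by autophagy, rose too. BNIP3 rose from 83.1 ± 8.83 to 133 ± 14.8 CPM (adjusted p = 4.1e-05), BNIP3L (1 OF 2) from 152 ± 40.4 to 266 ± 28.4 CPM and BNIP3L (2 OF 2) from 104 ± 14.5 to 153 ± 10.9 CPM. AIFM1, which works in the mitochondrial respiratory chain and can carry a death signal to the nucleus, fell from 123 ± 14.9 to 66.9 ± 8.68 CPM (adjusted p = 6.1e-05), and APAF1, the core of the apoptosome, from 24.4 ± 3.21 to 16.2 ± 0.470 CPM. Of 9 genes that oppose cell death 2 were higher (22.2%) and 3 lower (33.3%). BCL2L1 (3 OF 3), of the BCL-XL type, rose from 23.5 ± 1.57 to 35.4 ± 5.78 CPM, and API5 and BCL2L10 fell from 108 ± 13.1 to 76.5 ± 3.93 CPM and from 28.2 ± 3.08 to 20.0 ± 2.52 CPM.

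Autophagy, the wrapping of cell contents in a membrane for delivery to the lysosome, had 6 of 17 genes higher (35.3%) and 2 lower (11.8%), beside 16.9% and 18.7% of all genes, with a median log2 fold change of 0.08. ATG4D (2 OF 2), a protease that trims and frees the membrane tags of the ATG8 family, had 13.8, 15.1, 20.1, 15.3 and 19 CPM at 5 weeks and 40.4, 25.2, 30.8, 33.8 and 29.2 CPM at 27 weeks (log2 fold change 0.94 ± 0.12 SE, adjusted p = 4.2e-06). BECN1, of the kinase complex that marks the growing membrane, rose from 47.9 ± 4.62 to 69.8 ± 8.59 CPM, ATG13, of the starting complex, from 40.7 ± 2.80 to 59.1 ± 9.89 CPM, and ATG9A, which brings in membrane, from 69.4 ± 6.69 to 94.0 ± 8.84 CPM. The 2 contigs named ATG4D moved apart, since ATG4D (1 OF 2) fell from 36.7 ± 3.39 to 29.2 ± 3.13 CPM (adjusted p = 0.032). The call of ATG4D (1 OF 2) ended without 5 weeks JM100, JM101 or JM103 and without 27 weeks JM52, JM62 or JM66 (adjusted p up to 0.092). Reads that fit both ATG4D contigs may be missing from their counts. Of 13 lysosomal genes 2 were higher and 2 lower (15.4% each way, near all genes), with ASAH1, acid ceramidase, rising from 52.6 ± 5.43 to 79.4 ± 8.77 CPM and ABCB9, a lysosomal peptide pump, falling from 12.4 ± 1.86 to 5.73 ± 1.90 CPM. The other calls were lost more easily, AGA in 11 of 19 alternative fits, without 5 weeks JM100, JM101, JM103 or JM96 or 27 weeks JM52, JM69 or JM72 among them (adjusted p up to 0.17), and ATP6AP1 (1 OF 2) without 5 weeks JM103 or 27 weeks JM66 (adjusted p up to 0.066). Among co-chaperones AHSA1, which stimulates HSP90, fell from 104 ± 9.90 to 74.1 ± 8.29 CPM.

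**Figure D4:**
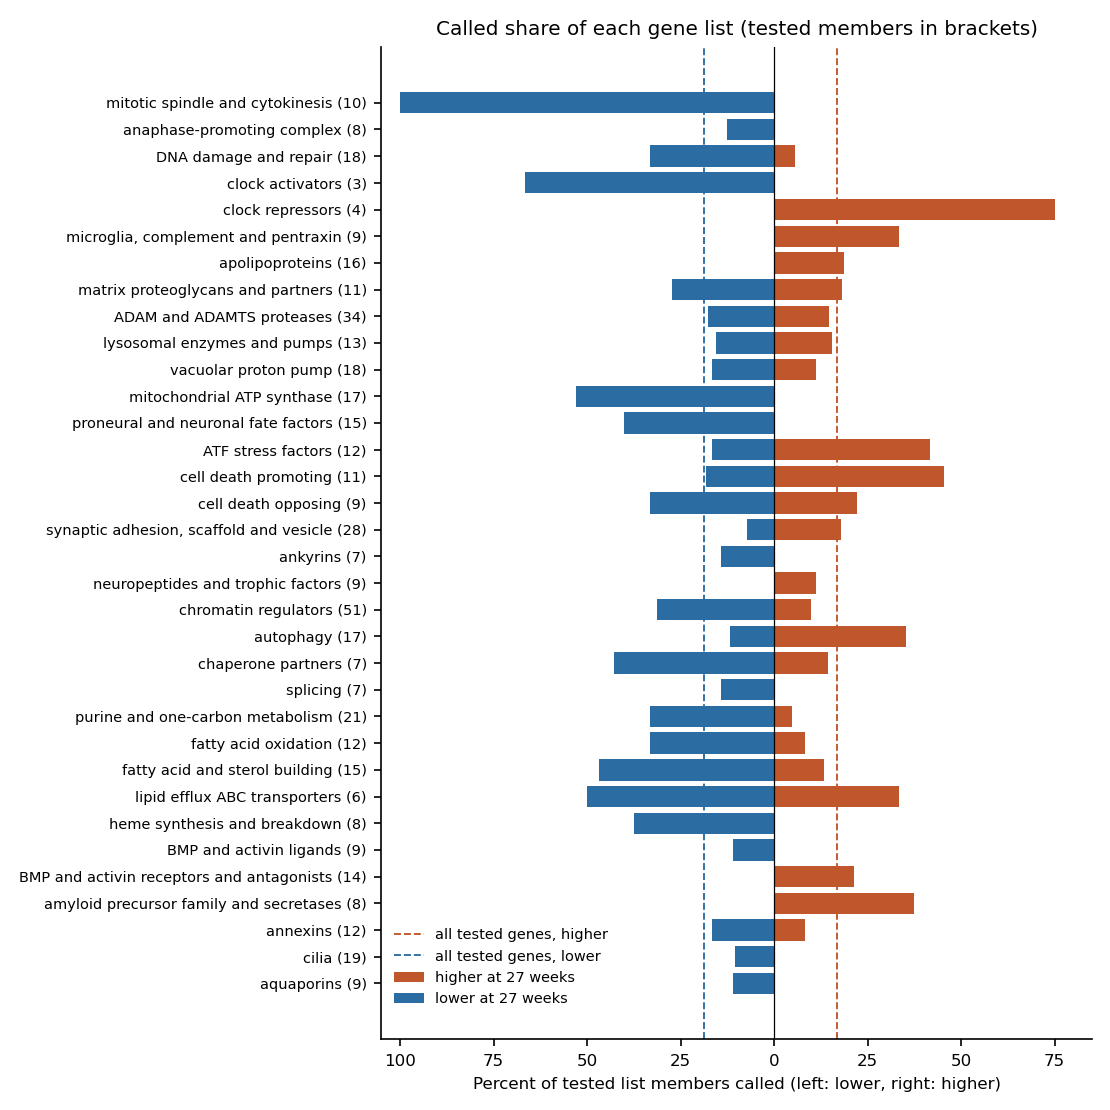
Share of the tested members of each gene list that were called lower (bars to the left) and higher (bars to the right) at 27 weeks, in percent, with the number tested in brackets. Dashed lines give the shares over all 16484 tested genes (18.7% lower, 16.9% higher). Mitotic spindle genes reach 100% lower and clock repressors 75.0% higher, and the shortest lists hold 3 and 4 genes. The lists and their members were chosen with earlier results of these data known.

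Microglia are the resident immune cells of the brain, and AIF1 (IBA1) is the gene by which they are usually stained. AIF1 had 2.57, 3.54, 3.71, 3.26 and 4.80 CPM at 5 weeks and 10.2, 6.98, 7.44, 7.68 and 7.67 CPM at 27 weeks, without overlap and with JM52 highest (log2 fold change 1.16 ± 0.22 SE, adjusted p = 3.1e-04). APCS, a pentraxin of innate immunity (serum amyloid P), had 5.47, 9.90, 6.57, 7.50 and 8.90 CPM at 5 weeks and 23.1, 20.7, 16.1, 23.8 and 12.0 CPM at 27 weeks, a 2.49-fold rise in which JM72 was the lowest older brain (adjusted p = 0.0011). BIN2B rose from 4.19 ± 0.571 to 6.14 ± 0.595 CPM, but its call ended without 5 weeks JM100 or JM96 and without 27 weeks JM69 (adjusted p up to 0.073). It also ended without the 6 libraries of mark w0w1 (adjusted p = 0.096). These 3 were the called members of 9 tested genes for microglia, complement and pentraxin, with 0 lower (33.3% higher, beside 16.9% of all genes, median log2 fold change 0.58). The complement genes C1QB, at 7.54 ± 1.25 and 8.53 ± 0.833 CPM, and C1QC, at 5.67 ± 1.43 and 8.45 ± 1.97 CPM, were not called in the model of all 25 libraries, and C1QC passed with the 10 libraries alone (adjusted p = 0.047).

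At the synapse a few genes rose while most of the list was not called. Of 28 tested genes for adhesion, scaffold and vesicles of the synapse, 5 were higher (17.9%, near the 16.9% of all genes) and 2 lower. BAI1 (3 OF 3), an adhesion receptor, had 179, 228, 192, 201 and 158 CPM at 5 weeks and 551, 448, 349, 374 and 289 CPM at 27 weeks, with JM52 highest and JM72 lowest of the older brains (log2 fold change 1.07 ± 0.21 SE, adjusted p = 4.5e-04). BAIAP2 (2 OF 2), which shapes actin in dendritic spines and is named for binding BAI1, had 44.0, 37.5, 51.6, 37.4 and 36.8 CPM and then 67.4, 63.8, 73.1, 91.8 and 93.8 CPM, with JM72 and JM69 highest. BEGAIN (1 OF 2), a scaffold of the postsynaptic density, rose from 98.8 ± 3.73 to 129 ± 7.94 CPM. The other contigs of BAI1, at 20.8 ± 7.99 and 25.4 ± 8.05 CPM for the first and 19.8 ± 10.0 and 28.5 ± 8.14 CPM for the second of 3, were not called.

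C1QL1 (1 OF 3), of a family of secreted ligands for BAI3 at synapses, carried the largest fold among them, but its call rested on 1 brain. C1QL1 (1 OF 3) had 52.6, 51.9, 51.4, 44.4 and 50.0 CPM at 5 weeks and 44.8, 195, 141, 622 and 42.9 CPM at 27 weeks. The ages overlapped, since JM62, JM66 and JM69 lay above every young brain and JM52 and JM72 did not. Without JM69 the log2 fold change went from 2.06 to 1.08 and the adjusted p from 0.0098 to 0.11. Its relative C1QL4 (1 OF 2) fell from 19.2 ± 1.43 to 13.2 ± 2.93 CPM (adjusted p = 0.0042). Among 9 neuropeptide and trophic factor genes BDNF alone was called, as higher (11.1%, beside 16.9% of all genes). BDNF, a growth factor of neurons that synaptic activity raises, had 1.80, 3.06, 3.14, 2.06 and 2.86 CPM at 5 weeks and 5.48, 3.68, 4.10, 4.93 and 5.48 CPM at 27 weeks, without overlap (log2 fold change 0.87 ± 0.21 SE, adjusted p = 0.0022).

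Blood contributes RNA to whole brain, since red cells of fish keep their nuclei. BA1, a haemoglobin gene, had 69.4, 54.1, 107, 52.6 and 62.8 CPM at 5 weeks and 4.46, 11.9, 5.77, 27.3 and 12.2 CPM at 27 weeks (log2 fold change -2.48 ± 0.64 SE, adjusted p = 0.0044). Its fall was among the 12 largest, JM69 kept the most of the older brains, and the log2 fold change was -3.09 without the 6 libraries of mark w0w1. ALAS2, the first enzyme of heme synthesis in red cells, had 28.8, 26.8, 36.2, 23.2 and 28.5 CPM and 10.5, 10.5, 6.63, 21.6 and 7.95 CPM, again with JM69 highest at 27 weeks (log2 fold change -1.32 ± 0.35 SE, adjusted p = 0.0046). BPGM, a red cell enzyme, fell from 22.6 ± 1.09 to 15.7 ± 1.67 CPM. The 4 blood markers summed to 199 to 283 CPM at 5 weeks and 139.5 to 179.6 CPM at 27 weeks, and 3 of 4 were lower (75.0%, beside 18.7% of all genes). Of 8 genes for making and breaking down heme 3 were lower (37.5%, beside 18.7% of all genes). They were ALAS2, which stands in both lists, ABCB6 (from 58.5 ± 5.92 to 45.7 ± 2.55 CPM) and ABCB10 (from 19 ± 2.51 to 15.0 ± 1.92 CPM). The call of ABCB10 ended without 5 weeks JM101 or JM96, without 27 weeks JM62 or JM72 and without the 6 libraries of mark w0w1 (adjusted p up to 0.097). The part of blood in the heme result was not tested.

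Proteins between and on the cells gave smaller lists. Aggrecan and brevican form the nets of matrix around neurons, and their genes moved apart. ACANA, an aggrecan, had 59.7, 70.7, 55.9, 59.7 and 71.6 CPM at 5 weeks and 68.1, 121, 127, 119 and 159 CPM at 27 weeks, where JM52 alone stayed among the young brains (log2 fold change 0.90 ± 0.22 SE, adjusted p = 0.0030). BCAN, a brevican, fell from 358 ± 8.49 to 242 ± 63.8 CPM, with the lowest value of 133 CPM in JM52. Its call ended without JM52 (adjusted p = 0.11). It also ended without JM62, without 5 weeks JM100, JM101, JM103 or JM96 and without the 6 libraries of mark w0w1 (all up to 0.061). ADAM and ADAMTS proteases, which cut such matrix and shed proteins from cell surfaces, were lower in 6 of 34 and higher in 5, at 17.6% and 14.7%, near all genes. ADAMTS12 fell from 18.5 ± 1.11 to 9.15 ± 3.29 CPM, and ADAM15 rose from 27.1 ± 4.67 to 40.6 ± 6.07 CPM.

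Signals of the BMP family shape the developing brain and keep adult progenitors quiet. Of 9 ligands only BMP3 was called, as lower (11.1%, beside 18.7% of all genes), from 7.28 ± 1.29 to 3.82 ± 1.4 CPM (adjusted p = 0.0056). Of 14 receptors and antagonists 3 were higher (21.4%, beside 16.9% of all genes) and 0 lower, with a median log2 fold change of -0.028. BMPR1BA, a type I receptor, had 15.1, 15.1, 17.0, 14.3 and 14.7 CPM at 5 weeks and 24.0, 27.6, 28, 25.4 and 21.5 CPM at 27 weeks (log2 fold change 0.73 ± 0.16 SE, adjusted p = 8.9e-04). ACVR1L rose from 49.8 ± 4.43 to 70.9 ± 7.81 CPM. In the amyloid precursor family, 3 of 8 genes were higher (37.5%, beside 16.9% of all genes) and 0 lower, with a median log2 fold change of 0.009. APLP2 rose by little, from 277 ± 10.3 to 325 ± 5.18 CPM (adjusted p = 0.0015), as did APLP, from 1404 ± 54.3 to 1617 ± 82.2 CPM. The call of APLP ended without 5 weeks JM100 (adjusted p = 0.083). The low contig APP rose 1.81-fold, from 1.53 ± 0.691 to 2.77 ± 0.692 CPM. Its call ended without any 1 of 5 weeks JM100, JM103 or JM97 and 27 weeks JM62 or JM66 (adjusted p up to 0.060). The contigs APP (3 OF 3) and APPB were not called. Of 12 tested annexins, which bind membranes in the presence of calcium, 1 was higher (8.33%), 2 were lower (16.7%) and 9 were not called. Over all genes 16.9% were higher and 18.7% lower. ANXA5 (1 OF 2) rose from 58.5 ± 4.41 to 81.4 ± 6.67 CPM. ANXA13 and ANXA4 fell from 108 ± 12.5 to 68.2 ± 17.8 CPM and from 14.3 ± 0.548 to 9.59 ± 1.45 CPM. Of 19 cilia genes 2 were lower (10.5%, beside 18.7% of all genes) and 0 higher. BBS7 fell by 1.36-fold and BBS2 by less (log2 fold change -0.21, adjusted p = 0.036). The call of BBS2 ended without 5 weeks JM100, JM101 or JM103 or 27 weeks JM66 (adjusted p up to 0.10). ALDH1A2, which makes retinoic acid and is listed above as a marker of choroid plexus and meninges, fell from 80.4 ± 11.7 to 52.6 ± 8.86 CPM. AQR, a splicing helicase, fell from 66.9 ± 10.5 to 44.2 ± 0.747 CPM. AQR was the 1 called of 7 splicing genes (14.3% lower, beside 18.7% of all genes). ASPA, the oligodendrocyte enzyme that splits N-acetylaspartate, rose from 26.3 ± 3.09 to 46.7 ± 15.9 CPM, with 74.6 CPM in JM72.

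The named genes of largest rise included several that fall in no list. ARRDC2 and ARRDC3 are alpha-arrestins, adaptors that send membrane proteins to degradation. ARRDC2 had 23.1, 27.5, 37.1, 32.0 and 28 CPM at 5 weeks and 79.9, 137, 63.4, 127 and 82.1 CPM at 27 weeks (log2 fold change 1.73 ± 0.28 SE, adjusted p = 5.4e-05). ARRDC3 had 78.2, 95.3, 85.3, 117 and 110.2 CPM and 388, 334, 228, 209 and 155 CPM (log2 fold change 1.43 ± 0.38 SE, adjusted p = 0.0046), and in both every older brain was above every young one, with JM62 and JM69 highest for the first and JM52 and JM62 for the second. A contig whose best hit is listed as 24242 rose from 59.1 ± 10.0 to 155 ± 25.8 CPM.

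At the other end AQP8 (2 OF 3), a channel for water and ammonia, had 6.67, 2.30, 3.88, 0.973 and 1.66 CPM at 5 weeks and 0.0513, 0.0541, 0, 0.271 and 0.0914 CPM at 27 weeks. It was low in all brains and close to the limit of detection in the older ones (log2 fold change -4.89 ± 0.80 SE, adjusted p = 5.8e-05). Without 27 weeks JM69 its log2 fold change was -5.76, and without the 6 libraries of mark w0w1 -5.99. The other 8 tested aquaporins were not called, so that 11.1% of the list were lower, beside 18.7% of all genes. ANFC2_ORYLA, a C-type natriuretic peptide by its best hit in medaka, fell from 4.51 ± 1.38 to 1.34 ± 0.852 CPM, and ANKRD10A from 7.35 ± 0.687 to 2.25 ± 0.462 CPM. Among contigs with no name, 2 were looked at after their values were seen. Nofu_gene_3_0007871 fell from 8.29 ± 2.40 to 0.324 ± 0.130 CPM in all 5 older brains. Nofu_gene_3_0002707 had the largest fitted rise with 166, 0.379, 0.377, 1.13 and 0.822 CPM at 27 weeks against 0.273, 0.118, 0.628, 0.286 and 0.461 CPM at 5 weeks, which came from JM52 alone: without it the log2 fold change went from 6.53 to 0.93 and the adjusted p from 0.0010 to 0.23.

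AGR2, a disulfide isomerase of secretory cells listed here among skin, bone and fin markers, is a called gene for which the study gives a stretch of killifish cDNA and primers. The study reported AGR2 by in situ hybridization in stem cells of the killifish optic tectum and counted it among the genes lower with age. The listing as a marker therefore does not say from which tissue its RNA came. The stretch between and including its primers, taken from the in situ probe of the study (bases 128 to 337 of 574, sense strand 5′ to 3′, no genome position in the sources used here), is shown because it is the part of the transcript by which the gene can be measured again. Capitals mark the 19 bases of the forward primer and the 22 bases to which the reverse primer is complementary.
AGR2: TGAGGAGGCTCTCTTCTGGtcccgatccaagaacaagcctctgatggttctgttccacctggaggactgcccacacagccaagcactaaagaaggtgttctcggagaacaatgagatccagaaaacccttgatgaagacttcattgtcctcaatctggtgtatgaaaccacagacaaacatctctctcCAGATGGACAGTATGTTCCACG
The values of AGR2 were 0.109, 8.25, 0.686, 0.401 and 1.38 CPM at 5 weeks and 0.154, 0.108, 0.216, 0.226 and 0.274 CPM at 27 weeks. One young brain, JM101, stood far above the others, and the lowest young value was below some of the older ones. Without JM101 the log2 fold change went from -3.40 to -1.70 and the adjusted p from 0.0039 to 0.073.

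The other ages of the series show where between 5 and 27 weeks these levels were reached. They share the 5-week or the 27-week libraries with the comparison above and are given as values only. At 12, 20 and 39 weeks ASPM stood at 3.86 ± 1.69, 1.59 ± 0.987 and 0.842 ± 0.499 CPM, and AURKA at 3.39 ± 0.514, 2.76 ± 0.971 and 2.81 ± 0.256 CPM. AHCY was at 67.3 ± 7.16, 64.3 ± 9.0 and 66.4 ± 7.02 CPM. The 12-week means of all 3 genes lay nearer to the 27-week than to the 5-week mean.

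ABCA1A was at 394 ± 97.7, 514 ± 177 and 491 ± 91.0 CPM at 12, 20 and 39 weeks, and ABCA1B at 64.7 ± 13.3, 63.6 ± 41.3 and 50.4 ± 19.6 CPM. APOEB stood at 398 ± 50.4 CPM at 12 weeks, below its 27-week mean, and at 1028 ± 396 CPM at 39 weeks, above it. BBC3 was at 14.6 ± 1.6, 16.7 ± 6.56 and 17.1 ± 2.60 CPM and highest by its mean at 27 weeks. ARRDC2, at 74.7 ± 19.3 CPM at 12 weeks, was at 42.2 ± 10.9 CPM at 39 weeks. Of the clock activators, ARNTL2 was at 19.4 ± 8.32, 36.3 ± 18.6 and 45.3 ± 12.8 CPM at 12, 20 and 39 weeks. ARNTL1A was at 38.4 ± 10.9, 71.9 ± 27.3 and 71.8 ± 7.96 CPM. At 39 weeks the means of both lay near their 5-week means of 44.5 and 73.0 CPM.

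Between 12 and 27 weeks, tested in the same model, 1 gene was higher and 4 were lower in edgeR (0.00607% and 0.0243% of 16484), of which ABAT, the enzyme that breaks down GABA, is the only one with a name, and it was chosen after its values were seen. ABAT had 494, 568, 650.3, 495 and 504 CPM at 5 weeks and 444, 632, 606, 563 and 555 CPM at 27 weeks, with a mean of 829 ± 43.2 CPM at 12 weeks. Between 5 and 27 weeks ABAT was not called (log2 fold change 0.05 ± 0.10 SE, adjusted p = 0.75).

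**Figure D5:**
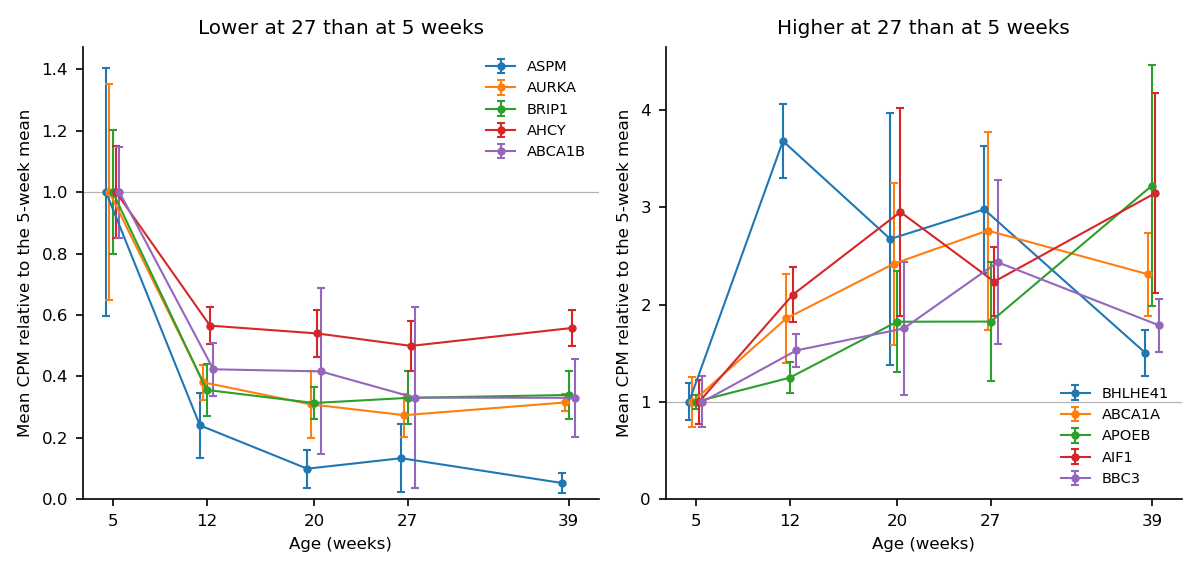
Mean level of 5 genes lower (left) and 5 genes higher (right) at 27 than at 5 weeks, over the ages 5, 12, 20, 27 and 39 weeks (x axis), as CPM relative to the mean at 5 weeks (y axis, from 0), with SD (bars, n = 5 per age; points are shifted slightly sideways to separate them). ASPM, AURKA, BRIP1, AHCY and ABCA1B are low from 12 weeks on, and APOEB has its highest mean, 1028 CPM, at 39 weeks.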

How the data were processed

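Counts per transcript contig were those the authors deposited, whole numbers without normalization, and RPKM, which scales counts by length and library, was used as the authors deposited it. According to the study, single reads were mapped uniquely with Bowtie, and CASAVA, featureCounts 1.4.3-p1 and TopHat2 2.0.6 stand in the notes of the submitters, with no step assigned to them. The strand of counting and the genome build are not given in the sources used here. Unique mapping leaves out reads shared by near-identical copies, and CPM compares a gene between brains, not genes of different length. Totals of the 10 libraries were 16501691 to 22557320 counts. Each SD is a spread over the 5 brains of an age, whereas each SE comes from the model of all 25 libraries.

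Groups came from the age labels. Counts were scaled by TMM, filtered by filterByExpr and compared by the quasi-likelihood test of edgeR 4.0.16 under R 4.3.3, in 1 model of all 25 libraries, contrast 27 minus 5 weeks, with Benjamini-Hochberg adjustment over 16484 genes. The standard error is the absolute log2 fold change divided by the square root of F. On simulated counts the steps recovered 87 of 100 genes changed 2-fold and 47 of 100 changed 1.5-fold, with 7 false among 141 calls. Far fewer genes were changed there than were called in the data, and each gene was given the spread typical of its level. The recovered shares therefore need not hold for the data. Scaling of the libraries used log2 CPM with a prior count of 2.

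Names from a supplementary table of the study (1999 held, from A to C1QL4) were paired for 1994 contigs by the shares of mean RPKM over the 5 ages, to within 3e-06. They are best BLAST hits, and genes later in the alphabet are not named here. By rule, named were the 12 called genes of largest rise and the 12 of largest fall with a mean of at least 1 CPM at the higher age and no overlap, up to 5 called members per list, and every clock and mitotic gene. The members and lists were chosen with earlier results of these data known. A few genes that the rule selects are not reported here. Any further gene in the text was picked with its values in view.

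Alternatives were DESeq2 size factors, upper-quartile factors, library totals, no filter, a filter of 1 CPM in 5 libraries, DESeq2 1.42.0, the 10 libraries alone, the mark w0w1 as a factor or left out, the later count table the authors deposited (counts of calls only), and each library left out. Python 3.11.15, NumPy 2.4.6, pandas 2.3.3 and matplotlib 3.10.9 were used. The RPKM tables served for naming and for 1 comparison between genes. The later RPKM table was not used here.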

Additional observations from a re-analysis of the deposited data

Results flagged for a closer look

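In a group of 5 brains, a highest or lowest value was looked at again where its gap to the next exceeded 0.71 of the range of the group. Chance does this in about 1 of 20 groups, and it occurred in 5.29% of the 340 groups of the named genes.

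ACLYA was highest in JM100 among the brains of 5 weeks, at 187 CPM against 135 to 149.9 CPM in the other 4. ADA was highest in JM69 among the brains of 27 weeks, at 5.20 CPM against 1.72 to 2.47 CPM in the other 4. AGR2 was highest in JM101 among the brains of 5 weeks, at 8.25 CPM against 0.109 to 1.38 CPM in the other 4. AIF1 was highest in JM52 among the brains of 27 weeks, at 10.2 CPM against 6.98 to 7.68 CPM in the other 4. ALAS2 was highest in JM69 among the brains of 27 weeks, at 21.6 CPM against 6.63 to 10.5 CPM in the other 4. ASPA was highest in JM72 among the brains of 27 weeks, at 74.6 CPM against 35.5 to 43.3 CPM in the other 4. ATF5 (1 OF 2) was highest in JM103 among the brains of 5 weeks, at 59.0 CPM against 45.1 to 48.8 CPM in the other 4. ATF5 (1 OF 2) was highest in JM52 among the brains of 27 weeks, at 42.6 CPM against 30.7 to 33.3 CPM in the other 4. ATP6V1C1A was highest in JM69 among the brains of 27 weeks, at 505 CPM against 164 to 253 CPM in the other 4. BATF was lowest in JM101 among the brains of 5 weeks, at 5.01 CPM against 6.34 to 6.81 CPM in the other 4. BBS2 was lowest in JM66 among the brains of 27 weeks, at 56.3 CPM against 64.0 to 64.9 CPM in the other 4. BMPR1BA was highest in JM103 among the brains of 5 weeks, at 17.0 CPM against 14.3 to 15.1 CPM in the other 4. BTG1 was lowest in JM97 among the brains of 5 weeks, at 78.4 CPM against 88.0 to 91.9 CPM in the other 4. C1QB was lowest in JM62 among the brains of 27 weeks, at 7.09 CPM against 8.57 to 9.07 CPM in the other 4. C1QC was highest in JM101 among the brains of 5 weeks, at 8.19 CPM against 4.68 to 5.25 CPM in the other 4. C1QL1 (1 OF 3) was highest in JM69 among the brains of 27 weeks, at 622 CPM against 42.9 to 195 CPM in the other 4. Nofu_gene_3_0002707 was highest in JM52 among the brains of 27 weeks, at 166 CPM against 0.377 to 1.13 CPM in the other 4. Nofu_gene_3_0010637 was highest in JM62 among the brains of 27 weeks, at 27.4 CPM against 12.3 to 16.2 CPM in the other 4.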

How the results depend on the processing

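The counts of called genes stayed within 1.5 times their value in all 20 alternatives. The number higher ran from 1958 (without 5 weeks replicate JM100) to 3242 (later count table, 20169 gene models) and the number lower from 2600 (without 5 weeks replicate JM101) to 3699 (later count table), and with each library left out in turn from 1958 to 2833 and from 2600 to 3070. DESeq2 called 2859 higher and 3227 lower. Over 19 alternatives 159 called genes were followed singly. Of these 124 were called in every one, 35 lost the call in at least 1 (16 higher, 19 lower, 0 under DESeq2), and 0 changed direction. Most of them had been picked for a small p or a large change, so these counts do not describe all calls. Without 5 weeks JM100, 1949 of all 2787 higher and 2714 of all 3083 lower calls were kept. Without the 6 libraries of mark w0w1, 2155 and 2603 were kept. The pineal gene ASMT (log2 fold change -0.63, not called) passed with the 10 libraries alone (adjusted p = 0.013), as did C1QC. ABAT, not called, had a log2 fold change of -0.0075 without 5 weeks replicate JM100 and of -0.00094 without 27 weeks replicate JM62, and of up to 0.12 without any other single library. The scaling moved the median log2 fold change of all genes between -0.0030 (library totals) and 0.036 (upper-quartile factors). Depth and 5 brains per age limit small changes, so that a gene not called may still differ by 1.5-fold. No paired analysis was possible because the libraries of the 2 ages share no replicate numbers.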
